A study of Mus musculus with 15 samples.

Results

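The cyclin-dependent kinase (CDK) inhibitors and D-type cyclins were 9 of the 53465 genes in the table of normalized counts, taken by gene name. They comprised 6 inhibitor genes, the CIP/KIP members *Cdkn1a* and *Cdkn1b* and the INK4 members *Cdkn2a*, *Cdkn2b*, *Cdkn2c* and *Cdkn2d*, and 3 cyclin genes, *Ccnd1*, *Ccnd2* and *Ccnd3*. D-type cyclins are made in response to growth factors and activate the kinases CDK4 and CDK6, which phosphorylate RB and so free E2F factors to drive entry into S phase. INK4 proteins bind CDK4 and CDK6 and keep them from the cyclins, whereas CIP/KIP proteins bind a broader range of cyclin and CDK complexes. Cells in different tissues use different D-type cyclins, and the inhibitors mark cell cycle exit, DNA damage responses and senescence.

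The cells were sorted from B16-F0 melanomas grown in CAG-GFP mice and collected on day 15, and 5 libraries were sequenced per population. Endovascular progenitors (EVP) were the cells with low CD31 and low VEGFR2, transit amplifying cells (TA) had intermediate CD31 and low VEGFR2, and definitive differentiated cells (D) had high CD31 and high VEGFR2, all among GFP+ Lin- CD34+ cells. The study used mice of both sexes aged 8 to 14 weeks. All 3 populations carried the same GFP transgene, whose promoter is active in every cell type, so that GFP marked cells of the host and not endothelium. The labels number the libraries 1 to 5 within each population and do not say whether they came from separate animals, so p-values measure the spread between these libraries, which may be technical. In such bulk samples, fewer cells of a type and less RNA per cell cannot be told apart.

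Library depth ran from 5394356 to 26513073 reads assigned to genes, so that 1 read was worth 0.604 to 3.51 normalized counts. Reads on the 1092 olfactory receptor genes, which are expressed in sensory neurons of the nose, were found for 98.4% of those genes in EVP replicate 1, 89.5% in D replicate 1 and 82.1% in TA replicate 1, for 58.0% to 70.9% in EVP replicate 2, TA replicate 2 and TA replicate 3, and for 2.93% to 24.5% in the other 9 libraries. The sum of 12 endothelial markers was 3551 to 7936 normalized counts in EVP, 11878 to 101719 in TA and 142486 to 240260 in D. At most 1 of the 12 was at 0 in any EVP library, but *Cdh5*, which defines endothelium, was only 18.3 to 183 in EVP against 7196 to 13383 in D. The sum of 10 fibroblast and mesenchymal markers ran the other way, from 847250 to 1505580 in EVP and 192799 to 611636 in TA to 1167 to 4252 in D. Within TA, replicate 5 had the lowest endothelial sum and the highest sum of 9 mural markers (156963, against 6212 to 40146 in the other TA libraries), replicate 2 the highest sum of 8 keratinocyte markers (79866), replicate 3 the highest sum of 9 melanoma markers (183139) and replicate 4 the highest sum of 10 leukocyte markers (52106). The leukocyte sum was 8061 to 52106 in TA, 2765 to 13891 in EVP and 3913 to 10406 in D, although cells with lineage markers had been sorted out. The melanoma sum was 72166 to 183139 in TA, 30854 to 70564 in EVP and 19227 to 50587 in D, although GFP+ cells of the host had been sorted. The part of these cell mixtures in the differences below was not tested.

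From EVP to D, *Ccnd1* and *Cdkn2b* were higher and *Ccnd2* was lower, while TA differed from EVP in *Ccnd1* and from D in all 3. Of the 9 genes, all of which passed the minimum mean of 5 normalized counts, 3 differed between EVP and D (limma, Benjamini-Hochberg adjusted p under 0.05), against 19.0% of the 25549 genes tested. *Ccnd2* was the 1 gene higher in EVP (11.6% of all genes), and *Ccnd1* and *Cdkn2b* were the 2 higher in D (7.46% of all genes). For the same 3 genes the libraries of EVP and D did not overlap, which was so for 17.7% of all genes. Between EVP and TA, *Ccnd1* was the 1 gene of 9 that differed. It was higher in TA, where 1.94% of all genes were called (1.56% were called higher in EVP and 3.50% in either direction), and its libraries did not overlap, as for 4.29% of all genes. Between TA and D 3 of the 9 genes differed, against 12.5% of all genes, with *Ccnd2* higher in TA (8.21% of all genes) and *Ccnd1* and *Cdkn2b* higher in D (4.31%). Here *Ccnd2* alone had libraries that did not overlap (9.25% of all genes). Each population enters 2 of the 3 comparisons, so their results share libraries.

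The median log2 difference of the 9 genes was -0.42 for EVP minus D, beside 0.46 over all genes tested. It was -0.07 for EVP minus TA beside 0.09 over all genes, and -0.49 for TA minus D beside 0.24. Scaling moved these backgrounds, as did leaving out EVP replicate 1. Without that library the median of all genes for EVP minus D was 0.055, over 21696 genes tested. It was 0.057 after subtracting a background estimated from olfactory receptor genes. With quantile normalization the median of all genes for EVP minus D was -0.05, and the calls split into 1920 higher in EVP and 1983 higher in D, against 2952 and 1907 with the authors' scaling. With libraries scaled to the same total, the calls between EVP and TA split into 237 and 714, against 398 and 495. The directions of *Ccnd1*, *Ccnd2* and *Cdkn2b* in the comparisons that called them were the same under all 30 alternatives.

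**Figure D1:**
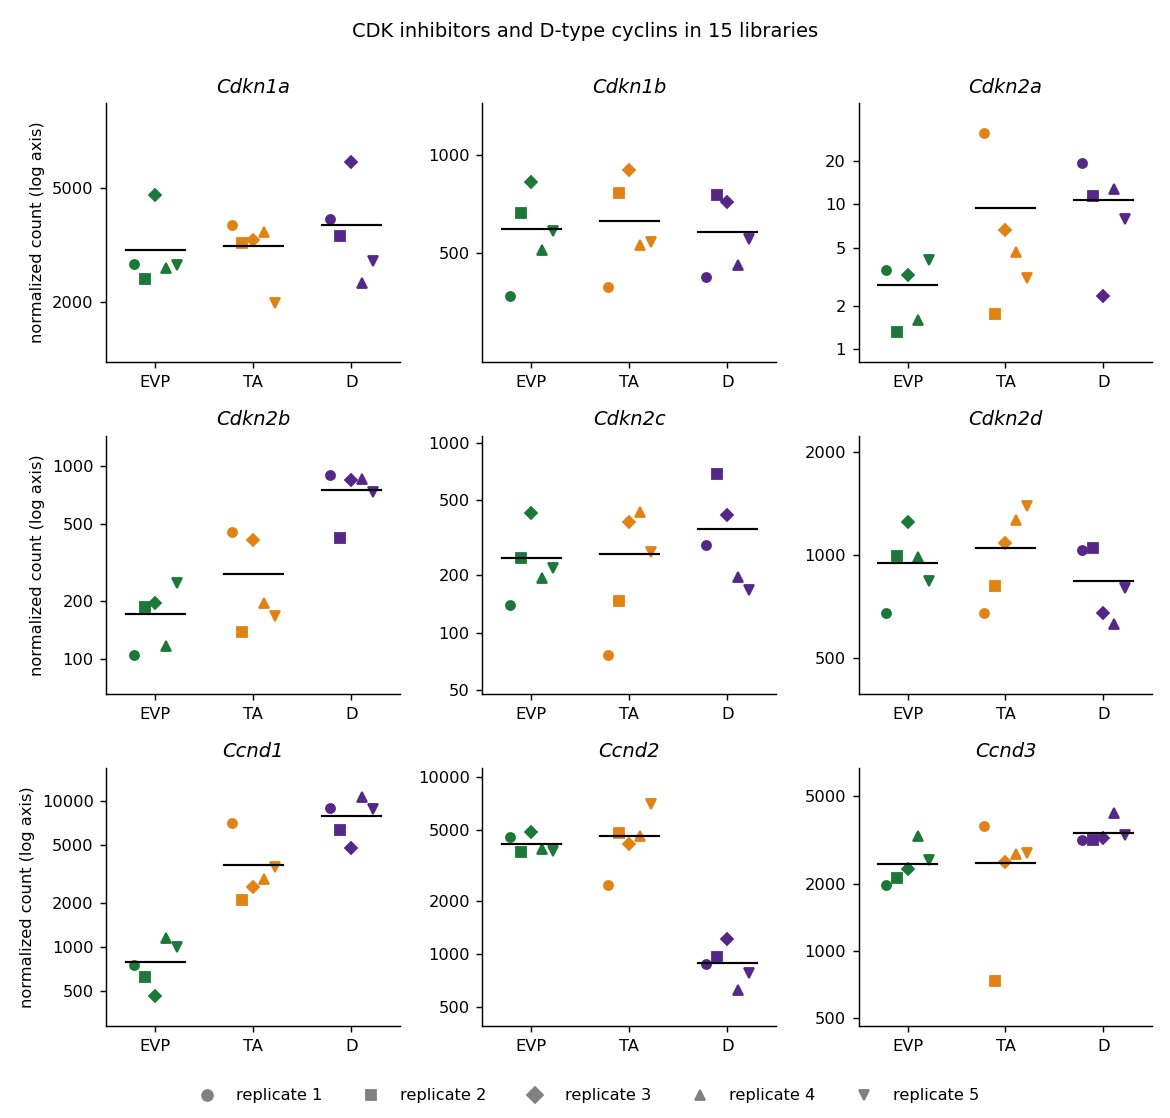
Normalized count of each of the 9 genes in the 15 libraries, on a log axis of its own for each gene, with 1 symbol per replicate number and a black line at the mean of the 5 libraries. *Ccnd1* in D (4755 to 10649) lay above all EVP libraries (455 to 1144), *Ccnd2* in D (621 to 1208) below all EVP and TA libraries, and *Cdkn2b* in D (425 to 902) above all EVP libraries.

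*Ccnd1* encodes cyclin D1, the D-type cyclin most often induced by mitogens and the one amplified in many cancers. It lies on chromosome 7 (chr7:144929931-144939925, minus strand, GRCm38). In EVP it stood at 748, 617, 455, 1144 and 991 normalized counts in replicates 1 to 5. In TA the values were 7124, 2095, 2555, 2931 and 3550, and in D they were 9057, 6328, 4755, 10649 and 8918. No library of TA or D was as low as the highest of EVP, and TA replicate 1 alone among TA libraries reached into the range of D. The means were 791 ± 278 in EVP, 3651 ± 2013 in TA and 7941 ± 2360 in D (SD, n = 5 each).

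*Ccnd1* was thus 10.0-fold higher in D than in EVP by the ratio of means, as for all folds given here (log2 difference -3.34 for EVP minus D, SE 0.32, limma adjusted p = 5.8e-07) and 4.62-fold higher in TA than in EVP (-2.14, SE 0.32, limma adjusted p = 0.0022). It was 2.18-fold higher in D than in TA (-1.21, SE 0.32, limma adjusted p = 0.0174). On the log2 scale between the mean of EVP (0) and that of D (1), TA lay at 0.64, with its libraries from 0.44 in replicate 2 to 0.97 in replicate 1. The call between TA and D, but not the size of the difference, depended on single libraries, with a log2 difference of -1.04 (adjusted p = 0.0507) without TA replicate 2 and -1.09 (adjusted p = 0.0562) without D replicate 4 (limma). In the 9 libraries with reads on under 50% of olfactory receptor genes, a choice made after seeing the data that leaves 3 of EVP, 2 of TA and 4 of D, the log2 difference for EVP minus TA was -2.01 with an adjusted p of 0.172 (limma), where 1 gene in all was called between these populations. In the same libraries it was -1.18 for TA minus D (adjusted p = 0.0651, limma).

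*Ccnd2* encodes cyclin D2, which drives proliferation in the ovary, in B cells and in neural progenitors among other tissues. It lies at chr6:127125162-127152193 (minus strand, GRCm38). In EVP its normalized counts were 4596, 3757, 4920, 3933 and 3822 in replicates 1 to 5. In TA they were 2466, 4857, 4180, 4663 and 7088, and in D they were 877, 961, 1208, 621 and 780. All 5 D libraries lay below the lowest EVP and TA libraries, and the TA libraries spread to both sides of EVP. The mean was 4206 ± 521 in EVP, 4651 ± 1656 in TA and 889 ± 218 in D (SD, n = 5 each).

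*Ccnd2* was 4.73-fold higher in EVP than in D (log2 difference 2.27, SE 0.23, limma adjusted p = 1.3e-06) and 5.23-fold higher in TA than in D (2.34, SE 0.23, limma adjusted p = 2.5e-06). Between EVP and TA the log2 difference was -0.07, with a 95% interval from -0.57 to 0.42 (limma adjusted p = 0.976). The 2 cyclins thus differed in where TA stood. TA lay at 0.64 of the log2 distance from EVP to D for *Ccnd1* and at -0.03 for *Ccnd2*.

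*Ccnd3* encodes cyclin D3, used by lymphocytes and muscle cells among others, and lies at chr17:47505051-47599691 (plus strand, GRCm38). Its normalized counts were 1994, 2140, 2349, 3297 and 2583 in EVP. In TA they were 3663, 733, 2526, 2745 and 2771, and in D 3171, 3169, 3241, 4196 and 3334. The D libraries were close together, and TA replicate 2 was far below all other libraries. No comparison called *Ccnd3*. The log2 difference for EVP minus D was -0.48 (95% interval -1.15 to 0.18, limma adjusted p = 0.380), that for EVP minus TA 0.14 (-0.52 to 0.81, adjusted p = 0.951) and that for TA minus D -0.63 (-1.29 to 0.04, adjusted p = 0.247). TA libraries enter the shared estimate of spread, and EVP minus D, at the same -0.48, was called without TA replicate 2 (limma adjusted p = 0.0419) and in a fit of only EVP and D (adjusted p = 0.0405).

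**Figure D2:**
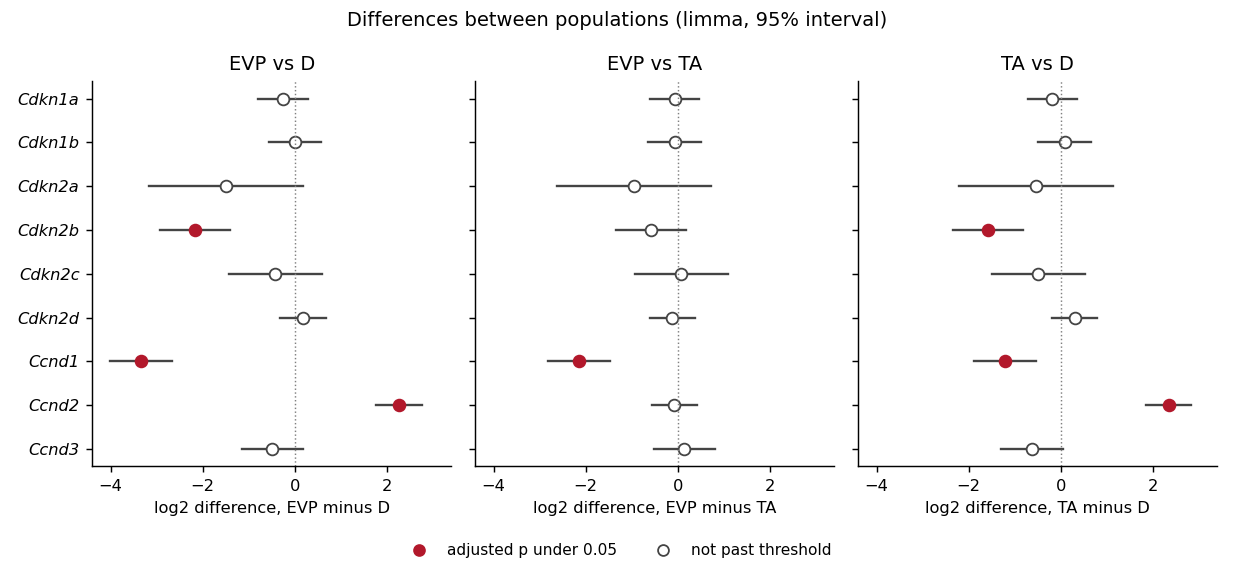
Log2 difference (first minus second population) of each gene in the 3 comparisons, with its 95% interval from limma and filled points for an adjusted p under 0.05. *Ccnd1* was past the threshold in all 3 panels (-3.34, -2.14 and -1.21), *Ccnd2* in both comparisons with D (2.27 and 2.34), and the widest intervals were those of *Cdkn2a*.

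To set the cyclins against each other, normalized counts were divided by exon length in kilobases (4.709 for *Ccnd1*, 9.409 for *Ccnd2* and 8.775 for *Ccnd3*) and expressed as shares of the 3 genes in each library. *Ccnd2* held 50.3% of this sum in EVP, 34.4% in TA and 4.79% in D (means of 5 libraries). *Ccnd1* held 18.5%, 47.8% and 76.6%, and *Ccnd3* 31.2%, 17.8% and 18.6%. The leading D-type cyclin was thus *Ccnd2* in EVP and *Ccnd1* in D, in every library of each.

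The ratio of *Ccnd1* to *Ccnd2* per kilobase was 0.185 to 0.581 in EVP, 0.862 to 5.77 in TA and 7.87 to 34.2 in D, with no overlap between the 3 populations. In TA it was 5.77, 0.862, 1.22, 1.26 and 1.00 in replicates 1 to 5, so that the 2 transcripts were near parity in all TA libraries but replicate 1. The summed level per kilobase of the 3 cyclins was 897 ± 94.1 in EVP, 1553 ± 456 in TA and 2171 ± 513 in D (SD, n = 5 each). These shares and ratios are descriptions of values tested above and were not tested again.

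**Figure D3:**
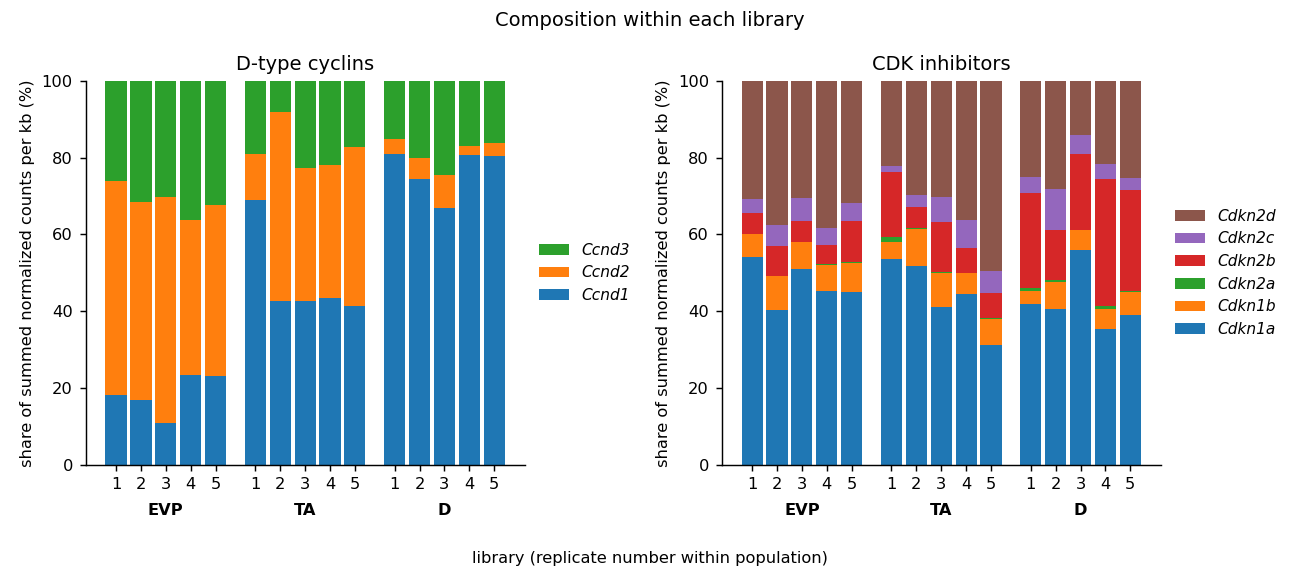
Share of each D-type cyclin (left) and each CDK inhibitor (right) in the sum of normalized counts per kilobase of exon, 1 bar per library, in percent. The *Ccnd2* share was 40.3% to 58.9% in EVP libraries and 2.35% to 8.51% in D libraries, and the *Cdkn2b* share was 5.12% to 10.6% in EVP and 12.9% to 33.2% in D.

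*Cdkn2b* encodes INK4b, an inhibitor of CDK4 and CDK6 that TGF-beta is known to induce in epithelial cells. Its normalized counts in replicates 1 to 5 were 105, 186, 196, 117 and 248 in EVP. In TA they were 457, 138, 415, 196 and 167, and in D 902, 425, 850, 856 and 736. All D libraries lay above all EVP libraries. TA replicates 1 and 3 stood well above the EVP range and the other TA libraries within it, and TA replicate 1 exceeded D replicate 2, the lowest of D. The mean was 170 ± 59.1 in EVP, 275 ± 149 in TA and 754 ± 194 in D (SD, n = 5 each).

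*Cdkn2b* was 4.43-fold higher in D than in EVP (log2 difference -2.16 for EVP minus D, SE 0.36, limma adjusted p = 2.4e-04) and 2.75-fold higher in D than in TA (-1.58, SE 0.36, limma adjusted p = 0.00682). Between EVP and TA the difference was -0.59, with a 95% interval from -1.35 to 0.18 (limma adjusted p = 0.507). The call between TA and D was lost with quantile normalization (-1.67, adjusted p = 0.0794) and, narrowly, after subtracting a background estimated from olfactory receptor genes (-1.59, adjusted p = 0.0505, both limma). Among the 6 inhibitors, *Cdkn2b* held 6.89% of the summed level per kilobase in EVP, 9.78% in TA and 23.4% in D. It exceeded *Cdkn2d*, the other well expressed INK4 gene, in D replicates 3, 4 and 5 (ratio per kilobase 0.459 to 1.54 over D, the lowest in replicate 2) and in no EVP or TA library (0.134 to 0.762).

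*Cdkn2b* and *Cdkn2a* are neighbours on chromosome 4 (chr4:89306289-89311032 and chr4:89274471-89294653, both on the minus strand, GRCm38), 11635 bases apart. *Cdkn2a* encodes the inhibitor INK4a and, from a first exon of its own and in another reading frame, ARF, which stabilizes p53. A count per gene does not separate them. In EVP, *Cdkn2a* had 1, 1, 4, 2 and 6 reads in replicates 1 to 5. In TA it had 18, 2, 6, 6 and 5 reads, and in D 14, 14, 3, 17 and 13. The 14 reads in all of EVP, 37 in TA and 61 in D set *Cdkn2a* at or near the limit of 3 reads in many libraries, and the populations overlapped. In normalized counts the means were 2.77 ± 1.25 in EVP, 9.46 ± 12.2 in TA and 10.7 ± 6.23 in D (SD, n = 5 each), with the highest value, 31, in TA replicate 1, where 82.1% of olfactory receptor genes also had reads. EVP replicate 1, with reads on 98.4% of those genes, had 1 *Cdkn2a* read, worth 3.51 normalized counts. The log2 difference for EVP minus D was -1.49, with a 95% interval from -3.16 to 0.18 (limma adjusted p = 0.249), so that no difference was detectable at this depth. Quantile normalization and limma's array weights each called it (-2.43, adjusted p = 0.0368, and -1.47, adjusted p = 0.0386, limma).

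The 250 bases before the starts of these 2 neighbours are shown because neighbouring genes of the same family differed so far in level, with *Cdkn2b* at 425 to 902 normalized counts in D and *Cdkn2a* at 2.34 to 19.2. They come from RefSeq windows (GRCm38.p6), 5′ to 3′ on the minus strand. Such windows were given for 7 of the 9 genes and not for *Ccnd1* and *Ccnd2*. Capitals mark a match to 1 of the motifs searched on both strands, TGACGTCA (the cAMP response element) in the first and GGGCGG (the GC box) in the second.
Cdkn2b, chr4:89311033-89311282: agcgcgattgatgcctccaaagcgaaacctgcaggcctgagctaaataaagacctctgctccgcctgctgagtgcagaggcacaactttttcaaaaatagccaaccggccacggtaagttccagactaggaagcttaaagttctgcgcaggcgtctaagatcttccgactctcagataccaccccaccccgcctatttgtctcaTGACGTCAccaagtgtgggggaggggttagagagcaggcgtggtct
Cdkn2a, start of ARF, chr4:89294620-89294869: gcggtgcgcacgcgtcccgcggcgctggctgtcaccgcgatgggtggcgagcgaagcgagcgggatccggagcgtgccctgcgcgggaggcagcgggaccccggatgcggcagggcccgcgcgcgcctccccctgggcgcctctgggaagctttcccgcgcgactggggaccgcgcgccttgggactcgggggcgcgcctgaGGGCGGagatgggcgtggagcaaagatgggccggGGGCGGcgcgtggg
Cdkn2a, start of INK4a, chr4:89282193-89282442: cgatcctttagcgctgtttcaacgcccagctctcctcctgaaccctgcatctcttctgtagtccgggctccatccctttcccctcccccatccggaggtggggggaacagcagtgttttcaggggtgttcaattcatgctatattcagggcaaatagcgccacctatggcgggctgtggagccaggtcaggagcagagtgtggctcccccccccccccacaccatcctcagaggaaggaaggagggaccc
The *Cdkn2b* window was 53.6% G and C, close to the median of 52.4% over 32851 windows of the same length, and held TGACGTCA, found in 1.5% of all windows. The ARF window was 78.4% G and C and held GGGCGG in 2 places, a motif in 32.7% of windows. The INK4a window was 60% G and C and held none of the letters searched, which also included the E-box CACGTG (in 6% of windows), the AP-1 motif TGANTCA (6.7%), the ETS motif CCGGAAG (6.9%), the E2F motifs TTTGGCGC (0.4%) and TTTCGCGC (0.3%) and the SMAD motif GTCTAGAC (0.2%). The matches are descriptions of the letters, and binding was not measured.

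The other 4 inhibitors were not called in any of the 3 comparisons. *Cdkn1a*, the p53 target that encodes p21 (chr17:29090979-29100722, plus strand), was among the most abundant of the 9 genes in every population. Its normalized counts in replicates 1 to 5 were 2707, 2414, 4736, 2636 and 2686 in EVP, 3707, 3217, 3305, 3498 and 1984 in TA, and 3892, 3410, 6143, 2325 and 2790 in D. Replicate 3 was the highest library in both EVP and D, and the populations overlapped throughout. The log2 difference was -0.25 for EVP minus D (95% interval -0.79 to 0.28), -0.06 for EVP minus TA (-0.60 to 0.47) and -0.19 for TA minus D (-0.72 to 0.34), so that changes of the size seen for *Ccnd1* or *Ccnd2* between EVP and D lay outside the first interval.

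*Cdkn1b* encodes p27, which accumulates in resting cells (chr6:134920401-134925513, plus strand). It ranged from 369 to 828 normalized counts in EVP, with a median of 584, from 391 to 903 in TA, with a median of 539, and from 421 to 755 in D, with a median of 552. The 3 ranges nearly coincided. The log2 difference for EVP minus D was 0.01, with a 95% interval from -0.56 to 0.58 (limma adjusted p = 0.982), the smallest of the 9 genes in that comparison. Replicate 1 was the lowest library of all 3 populations for this gene.

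*Cdkn2c*, which encodes the INK4c inhibitor (chr4:109660876-109667189, minus strand), ranged from 140 to 429 normalized counts in EVP, 75.8 to 431 in TA and 169 to 683 in D. *Cdkn2d*, which encodes INK4d and was the most abundant INK4 gene in EVP and TA (chr9:21288410-21291407, minus strand), ranged from 678 to 1250, 679 to 1392 and 630 to 1047. Both genes overlapped between all populations. For EVP minus D the log2 differences were -0.42 (95% interval -1.43 to 0.59, limma adjusted p = 0.679) for *Cdkn2c* and 0.18 (-0.31 to 0.68, adjusted p = 0.719) for *Cdkn2d*. For TA minus D *Cdkn2d* stood at 0.30 (-0.20 to 0.79, adjusted p = 0.527), and 2 alternatives called it, array weights (0.63, adjusted p = 0.0361) and the 9 libraries with few olfactory receptor genes (0.78, adjusted p = 0.0467, both limma).

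The third CIP/KIP gene, *Cdkn1c*, which encodes p57, is an imprinted inhibitor linked to quiescence and is not among the 9. Its normalized counts were 112, 598, 845, 314 and 193 in EVP, 29.3, 78.2, 29.0, 355 and 62.3 in TA, and 8.24, 71.8, 36.7, 15 and 6.65 in D. The EVP libraries lay above all D libraries, while TA replicate 4 lay within the EVP range. The log2 difference for EVP minus D was 4.02 (SE 0.76, limma adjusted p = 7.99e-04), past the threshold in 29 of 30 alternatives, the exception being quantile normalization (3.32, adjusted p = 0.0546). *Cdkn1c* was thus higher in EVP while *Cdkn1a* and *Cdkn1b* did not pass the test.

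Per kilobase of exon, *Cdkn1a* led in EVP (854 normalized counts per kilobase) and TA (884), and *Ccnd1* led in D (1686, ahead of *Cdkn1a* at 1045). In EVP the order below *Cdkn1a* was *Cdkn2d*, *Ccnd2*, *Ccnd3*, *Ccnd1*, *Cdkn1b*, *Cdkn2b*, *Cdkn2c* and *Cdkn2a*, from 603 to 2.36 per kilobase. Only the steps from *Ccnd2* to *Ccnd3* and from *Cdkn2c* to *Cdkn2a* separated neighbours whose libraries did not overlap. In D the order below *Cdkn1a* was *Cdkn2b*, *Cdkn2d*, *Ccnd3*, *Cdkn2c*, *Cdkn1b*, *Ccnd2* and *Cdkn2a*, from 542 to 9.15 per kilobase, with gaps between *Cdkn1a* and *Cdkn2b*, *Ccnd3* and *Cdkn2c*, and *Ccnd2* and *Cdkn2a*. *Ccnd2* fell from the third place in EVP to the eighth in D. In TA, *Ccnd1* came after *Cdkn1a* at 775 per kilobase, and every pair of neighbours overlapped except *Cdkn2c* and *Cdkn2a*.

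Within TA, *Ccnd2* ran opposite to the endothelial marker sum of the library. In order of the endothelial sum, from 11878 in replicate 5 through 26454 in replicate 2, 37312 in replicate 4 and 54182 in replicate 3 to 101719 in replicate 1, *Ccnd2* was 7088, 4857, 4663, 4180 and 2466 normalized counts, lower at each step. In that order the mural marker sum was 156963, 38649, 40146, 18010 and 6212. The fibroblast and mesenchymal sum was 611636, 520381, 243961, 261156 and 192799. *Ccnd2* thus also fell with both of these sums, though not at each step. *Cdkn2b* in the same order was 167, 138, 196, 415 and 457, and *Ccnd1* was 3550, 2095, 2931, 2555 and 7124. The lowest *Ccnd1* of TA was that of replicate 2, at 2095. Replicate 5 had *Pecam1* at 372 normalized counts, within the EVP range of 119 to 613. Its endothelial sum, 11878, was above the EVP range of 3551 to 7936, as was its melanoma sum, 118177, above 30854 to 70564. Its *Ccnd1*, at 3550, was above the highest EVP library, at 1144. Without replicate 5, *Ccnd1* for EVP minus TA was -2.11 (limma adjusted p = 0.00147), and *Ccnd2* for TA minus D passed the test as well (limma adjusted p = 6.1e-06). With 5 libraries no correlation was computed, and the part of the cell mixture in these values was not tested.

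**Figure D4:**
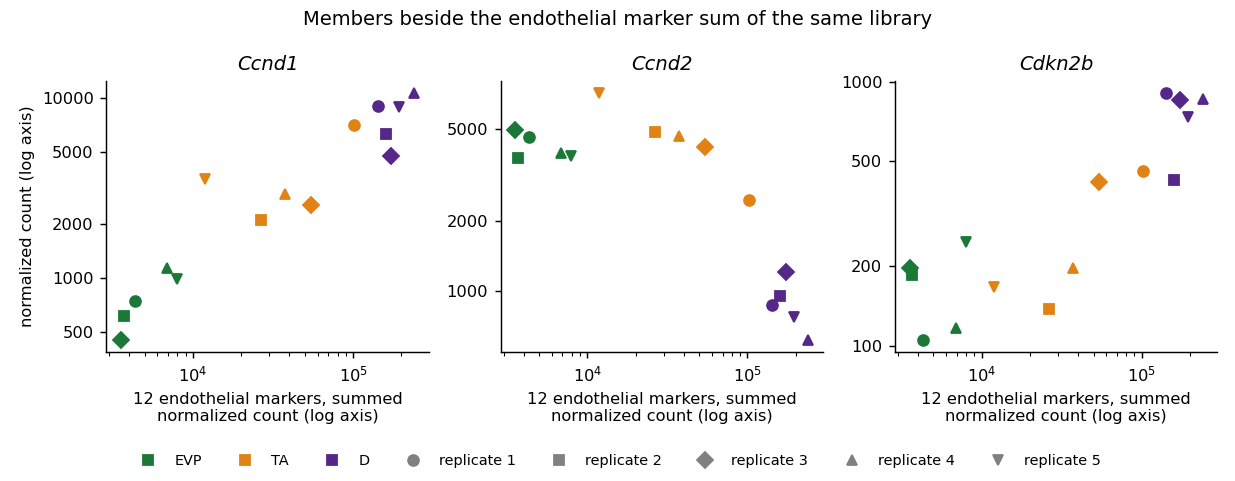
Normalized counts of *Ccnd1*, *Ccnd2* and *Cdkn2b* (vertical, log axis) against the summed normalized count of 12 endothelial markers in the same library (horizontal, log axis), with colors for populations and symbols for replicate numbers. In the 5 TA libraries *Ccnd2* ran from 7088 down to 2466 as the endothelial sum ran from 11878 up to 101719.

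The genes whose pattern over the 15 libraries was most like a called member were found by the root mean square difference of log2 values centred on their own mean, among 13122 genes with a mean of at least 50. For *Ccnd1*, whose own spread was 1.47, these were *Gng2*, a G protein subunit (0.38), and *Epas1*, which encodes the hypoxia factor HIF-2alpha (0.42). For *Ccnd2* (spread 1.14) they were *Cd63*, a tetraspanin (0.35), and *Carmil1*, a regulator of actin capping (0.36). For *Cdkn2b* (spread 1.06) they were *Ercc1*, a DNA repair nuclease subunit (0.30), and *Nectin2*, an adhesion molecule (0.30).

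Among the kinases that the cyclins and inhibitors act on, *Cdk4* and *Cdk6* did not pass the test between EVP and D. Of 6 G1 kinase and other G1/S cyclin genes, 0 were called between EVP and D by limma, edgeR or DESeq2, and 0 had an unadjusted limma p under 0.05. Of all genes, limma called 19.0% there. *Cdk4* stood at 4725 ± 861 normalized counts in EVP and 4420 ± 417 in D (log2 difference 0.08, 95% interval -0.25 to 0.42), a sign that turned with TMM factors and with scaling to the same total, and *Cdk6* at 1268 ± 663 and 822 ± 207 (0.51, -0.15 to 1.17). *Cdk2*, the partner of cyclin E, was the 1 gene of the list called elsewhere and is named after its values were seen, as are *Mcm6* and the values of *Plk2* against TA. It was 4550 in TA, against 2659 in EVP (log2 difference -0.74 for EVP minus TA, limma adjusted p = 0.0487, kept in 12 of 30 alternatives) and 2633 in D (0.78 for TA minus D, adjusted p = 0.0139, kept in 29).

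Among 13 pocket protein and E2F genes, 1 was higher in EVP and 2 in D, where 11.6% and 7.46% of all genes were called. *E2f7*, an E2F repressor, was lower in EVP than in D by a log2 difference of -1.52, and *E2f4*, a factor of resting cells, by -1.37 (limma adjusted p = 0.00657 and 0.0072), both also called between TA and D (-1.46 and -1.47). *E2f1*, an activator of S phase genes, was higher in EVP (0.75, limma adjusted p = 0.0378). Its sign held in all 30 alternatives and its call in 16. *Rb1*, the target of CDK4 and CDK6, had a mean of 142 normalized counts in EVP and 322 in D (limma adjusted p = 0.0724), and 9 alternatives called it.

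Among 18 regulators of the inhibitors and cyclins, 2 were higher in EVP and 3 in D, a count to be read against the same 11.6% and 7.46% of all genes. *Myc*, which raises *Ccnd2* and represses *Cdkn1a* and *Cdkn2b* in other systems, was 3096 to 6563 normalized counts in EVP and 1915 to 2463 in D, with no overlap (log2 difference 0.87, limma adjusted p = 0.0017). It was also higher in EVP than in TA (0.76, limma adjusted p = 0.0246, kept in 21 of 30 alternatives). *Cbx7*, a Polycomb protein that represses the *Cdkn2a* locus, was 2.94-fold higher in EVP (1.70, limma adjusted p = 0.0272), a call that 10 of 30 alternatives lost, down to 0.12 with quantile normalization. *Mycn* (-3.80), *Foxo1* (-1.67) and *Trp53*, which encodes p53 (-0.68), were higher in D (limma adjusted p = 0.00115, 0.0131 and 0.00781). *Mdm2*, which degrades p53, did not pass (-0.44, limma adjusted p = 0.154).

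Of 14 other p53 target genes, 3 were higher in EVP and 2 in D, against 11.6% and 7.46% of all genes. *Sesn1*, a stress-induced inhibitor of mTORC1 (2.61-fold), *Ccng1*, which encodes cyclin G1 (2.13-fold), and *Perp*, a desmosome protein (log2 difference 2.49, lost in 7 of 30 alternatives), were higher in EVP, and *Plk2* (-3.73, a mean of 1961 in EVP and 26198 in D) and *Bax* (-0.86) were higher in D. The targets thus fell on both sides, and *Cdkn1a* on neither. Their limma adjusted p-values ran from 5e-06 for *Plk2* to 0.0255 for *Perp*. The p53 list had a median log2 difference of 0.59 for EVP minus D, beside 0.46 over all genes. Without EVP replicate 1 the list stood at 0.48 beside 0.055, and after background subtraction at 0.26 beside 0.057.

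**Figure D5:**
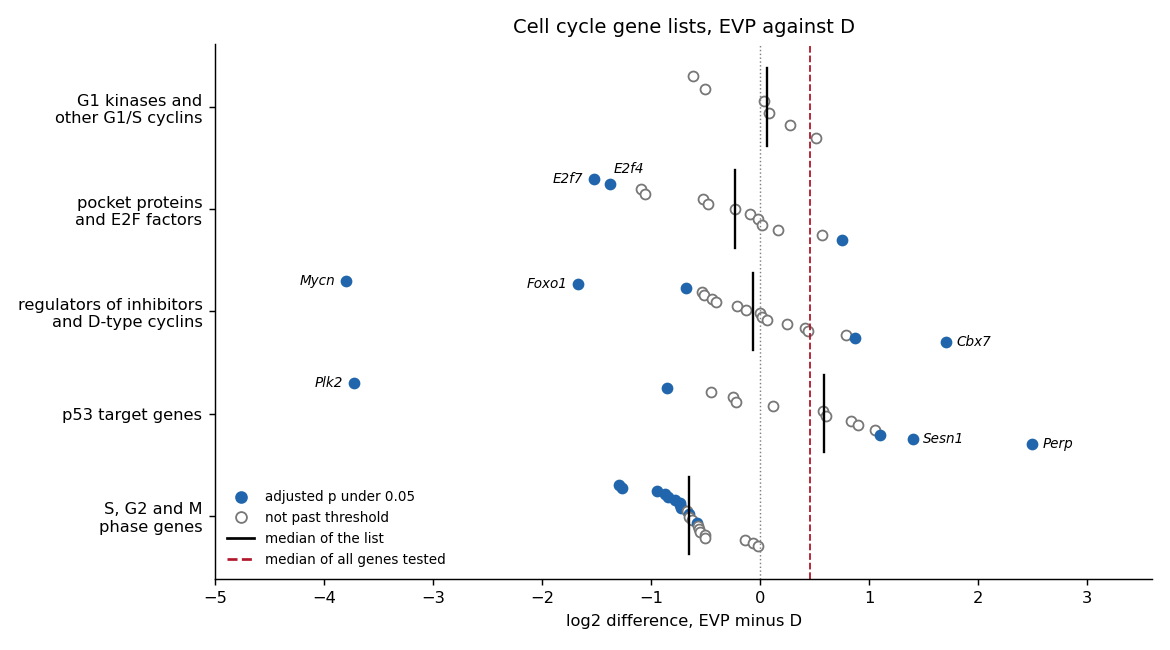
Log2 difference (EVP minus D) of each gene in 5 lists around the members, with filled points for a limma adjusted p under 0.05, a black line at the median of the list and a dashed line at the median of all genes tested (0.46). All 22 S, G2 and M phase genes lay below 0, with a median of -0.66, while no gene of the first list was past the threshold. Without EVP replicate 1 the median of all genes tested was 0.055.

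Downstream of the cyclins, 11 of 22 S, G2 and M phase genes passed the test with higher levels in D and 0 with higher levels in EVP (limma). Of all genes, 7.46% were called higher in D and 11.6% higher in EVP. The median log2 difference was -0.66, beside 0.46 over all genes tested. Without EVP replicate 1 it was -0.73 beside 0.055. *Cdk1*, the mitotic kinase, was lower in EVP by a log2 difference of -1.29, *Mcm3*, a subunit of the replicative helicase, by -1.27, *Birc5* (survivin) by -0.95 and *Plk1*, a mitotic kinase, by -0.87 (limma adjusted p = 0.00376, 0.00151, 0.0165 and 0.0468). The calls of *Cdk1* and *Mcm3* held in all 30 alternatives, that of *Birc5* in 27 and that of *Plk1* in 16. *Mki67*, the usual proliferation marker, stood at 694 to 1912 in EVP and 1557 to 2296 in D and did not pass (-0.57, limma adjusted p = 0.241). The count, but not the direction of the list, depended on the setting. It was 14 with TMM factors and 15 with array weights, against 4 genes called without D replicate 1, 2 or 5 or without EVP replicate 4, and 7 without EVP replicate 2. Quantile normalization left 5 and omitting the first replicate of each population 3. No minimum mean left 4, as did omitting the libraries with reads on over 50% of olfactory receptor genes, and background subtraction left 7. The median of the list ran from -0.80 with TMM factors to -0.49 without EVP replicate 4.

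The summed level of these 22 genes was 18259 to 37828 normalized counts in EVP, 37587 to 57614 in TA and 38630 to 55632 in D, so that TA and D overlapped widely. Between TA and D 0 of them were called by limma, with 2 at an unadjusted p under 0.05, 0 by edgeR and 1 by DESeq2. Between EVP and TA *Mcm6*, another helicase subunit, was the 1 called (-0.69, limma adjusted p = 0.0293, kept in 20 of 30 alternatives), with 13 at an unadjusted p under 0.05, 1 called by edgeR and 6 by DESeq2. Of all 25549 genes, limma called 893 between EVP and TA, edgeR 663 and DESeq2 1900. Between TA and D they called 3199, 2570 and 4202. Genes at an unadjusted p under 0.05 were not counted over all genes, so those counts have no background beside them.

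Between TA and D, 8.21% of all genes were called higher in TA and 4.31% higher in D, the shares against which these counts are to be read. Of 13 pocket protein and E2F genes, 2 were called there, both higher in D. Of the 18 regulators, 1 was higher in TA (*Cbx7*, 2.36) and 2 in D (*Foxo1*, -1.85, and *Trp53*, -0.62, the last lost in 5 of 30 alternatives), and of the p53 targets 2 were higher in TA (*Perp*, 4.53, and *Sesn1*, 1.24) and 2 in D (*Plk2*, -2.01, and *Bax*, -0.46, the last lost in 15). *Perp* moved with the 8 keratinocyte markers, which were all called higher in TA than in D and of which 6 were called higher in EVP than in D (limma). It was 743 to 11875 normalized counts in TA, the highest in replicate 2, which also had the highest keratinocyte sum, 236 to 1391 in EVP and 33.2 to 482 in D. The part of these cells in the *Perp* difference was not tested.

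Between EVP and TA, *Plk2* (-1.71, higher in TA, lost in 13 of 30 alternatives) was the 1 p53 target called. Of all genes, 1.94% were called higher in TA and 3.50% in either direction. Of the pocket protein and E2F genes 0 were called by limma there, with 1 at an unadjusted p under 0.05, 0 by edgeR and 1 by DESeq2.

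Genes on the opposite strand overlap the 3 cyclin genes, measured from gene start to gene end. Whether the shared bases lie in exons was not examined. The strand setting of the counting is not given in the sources used here. *Oraov1* shares 1771 bases with *Ccnd1*, *9330179D12Rik* and *Gm43126* share 2805 and 994 bases with *Ccnd2*, and *Bysl* shares 361 bases with *Ccnd3*. *Oraov1* ranged from 414 to 912 normalized counts over the 15 libraries, below *Ccnd1* in every TA and D library but above it in EVP replicates 2 and 3 (685 against 617 and 548 against 455), and *9330179D12Rik* from 0 to 94.8, below *Ccnd2* in every library. The library preparation that the authors describe names no step that keeps the strand. Reads from any exon bases within these overlaps could therefore not be told apart under any strand setting of the counting.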

How the data were processed

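GFP+ Lin- CD34+ cells of 3 populations were sorted from tumors, 5 libraries each. The authors prepared RNA with a modified Smart-Seq2 protocol (oligo-dT priming, PCR amplification, Nextera XT), sequenced on a NextSeq500, demultiplexed with bcl2fastq 2.17, aligned with STAR 2.5.3a to GRCm38 (Ensembl 91), counted reads per gene with HTSeq-count 0.6.1 and divided by DESeq2 1.10.1 size factors. The deposited values are thus a signal, normalized counts per gene, and not whole reads. The strand setting is not given in the sources used here. Other deposited tables hold the authors' own fold changes and p-values and were not used.

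Every value was a whole multiple (tolerance 0.001) of what 1 read was worth in its library, so reads were recovered. Reads carry no molecular identifiers, so limits based on 3 reads cover counting error only. Log2(normalized count + 1) of 25549 genes with a mean of at least 5 was fitted with limma 3.58.1 (R 4.3.3) over all 15 libraries, with Benjamini-Hochberg adjustment over all genes and 95% intervals. The method was tested on simulated data. Alternatives included edgeR 4.0.16 and DESeq2 1.42.0 on recovered reads, other scalings, minima and pseudocounts, limma array weights, a replicate block, and leaving out each library. Levels per kilobase used union exon lengths from GENCODE M21, which held 99.8% of genes. The table gives the start and end of each gene, and 96.3% of genes had the same position in GENCODE M21. Among the 9 members, *Cdkn1a* and *Cdkn2b* did not, so their levels per kilobase rest on gene models that differ from those counted. The members and all gene lists were chosen with earlier results of these data known. Named were the 9 members, at most 4 called genes per direction and list for EVP against D, a few regulators regardless of values, and for each called member the 2 genes nearest in pattern.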

Additional observations from a re-analysis of the deposited data

Results flagged for a closer look

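In 5 of the 27 groups of 5 libraries (9 genes in 3 populations), the highest or lowest library stood apart, with a gap to its neighbour, over the range of log2(normalized count + 1), above Dixon's critical value of 0.71. Chance alone puts about 1 in 20 such groups past that value. *Cdkn1a* stood apart in EVP, where replicate 3 was high (4736, gap over range 0.83), and in TA, where replicate 5 was low (1984, 0.773). *Cdkn2b* in D was low in replicate 2 (425, 0.73). *Ccnd3* was low in TA replicate 2 (733, 0.769) and high in D replicate 4 (4196, 0.82). TA replicate 5 also had the lowest endothelial marker sum of TA, and TA replicate 2 the highest keratinocyte marker sum. The part of these in the values was not tested.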

How the results depend on the processing

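Of the calls on members, *Cdkn2b*, *Ccnd1* and *Ccnd2* between EVP and D and *Ccnd2* between TA and D held under all 30 alternatives, *Ccnd1* between EVP and TA under 29, *Cdkn2b* between TA and D under 28 and *Ccnd1* between TA and D under 26. The exception for EVP and TA was the setting without libraries with reads on over 50% of olfactory receptor genes, added after seeing the data, which called 0 members and 1 gene in all. Between TA and D, subtracting the background called 1 member. The count of genes called between EVP and D became 7609 with array weights. Between EVP and TA (893 as reported) it was 1900 with DESeq2, 407 after background subtraction, 522 without the first replicates and, over the omissions of 1 library, 428 (without EVP replicate 2) to 1209 (without TA replicate 5). Between TA and D (3199) it was 2117 with quantile normalization, 5054 with array weights and 1635 after background subtraction. The cause of these shifts was not tested.

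Signs turned only for genes not called. For EVP minus D, *Cdkn1b* was -0.10 scaled to the same total, -0.13 with TMM, -0.069 with quantile normalization, -0.025 with edgeR and -0.16 after background subtraction (-0.12 to 0.17 leaving out libraries), *Cdkn2c* 0.000507 with array weights, *Cdk4* -0.028 scaled to the same total and -0.063 with TMM (-0.00824 to 0.14 leaving out libraries) and *Cdk6* -0.030 after background subtraction. For EVP minus TA, *Cdkn1a* was 0.086 with array weights, 0.034 without first replicates and 0.29 without the libraries with olfactory reads (-0.24 to 0.00701 leaving out libraries), and *Cdkn1b* 0.11 with array weights and 0.23 without the latter (-0.22 to 0.088). There *Cdkn2c* was -0.11 scaled to the same total, -0.00173 with TMM, -0.11 with quantile normalization, -0.10 with edgeR, -0.082 with DESeq2, -0.20 with array weights, -0.22 after background subtraction, -0.13 without first replicates and -0.37 without the libraries with olfactory reads (-0.31 to 0.32). *Ccnd3* was -0.036 scaled to the same total, -0.014 with edgeR, -0.00763 with DESeq2 and -0.023 without the libraries with olfactory reads (-0.25 to 0.33), and *Ccnd2* ranged from -0.28 to 0.097. For TA minus D, *Cdkn1b* was -0.19 (-0.066 to 0.23) and *Cdkn2c* 0.12 without the libraries with olfactory reads, *Cdkn2c* 0.20 with array weights, and *Cdkn1a* ranged from -0.34 to 0.012 leaving out libraries.

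The labels do not say what the replicate numbers share, and pairing was not established. Of 15 same-number pairs, 11 had deviations correlated above 0.1 (-0.14 to 0.69, median 0.44, against a median of -0.017 over 60 pairs of different numbers). In each of the 3 comparisons, the libraries of the first population were also matched to those of the second. The best match had the same number in 12 of these 15 cases, in which EVP libraries entered repeatedly and D libraries only as partners. Replicate 1 was the shallowest library of every population, with reads on the most olfactory receptor genes, and replicate 5 was the deepest. Pairs of replicate 4 with replicate 5 correlated at 0.33 to 0.40. The part of depth in the matches was not tested. The matches are hints from the data and not from the design. With a replicate block, 5710, 1262 and 4047 genes were called in the 3 comparisons, against 4859, 893 and 3199, and no call on a member changed. Depth limits *Cdkn2a*, at 1 to 18 reads per library.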
